A study of Rattus norvegicus with 12 samples.

Results

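PC12 cells are a line from a rat adrenal pheochromocytoma, a tumor of the catecholamine-producing chromaffin cells. The untreated cells of the series were read in the control channel of its 12 Agilent whole rat genome arrays, that is in 12 of 24 channels in all. The arrays compared cells given the neuropeptide PACAP38 with control cells at 6 time points from 5 to 120 min, and the channel that holds the control RNA was taken from the dye named in each title. Each time point had its own control pool of RNA, labelled with the time of the treated pool beside it and read on 2 arrays, once in Cy3 and once in Cy5. The 12 control channels are therefore 6 control pools, and RNA from cells given as n = 6 was pooled before labelling, so that the spread between single cultures is not visible. Whether the 6 pools came from separate cultures is not given in the labels. The cells (PC-12, RCB0009), for which the labels name no transgene, grew in medium with fetal bovine and horse serum on a collagen-coated surface, and were sampled some hours after plating. The study describes the comparison as one with no addition of PACAP; whether the control wells received a vehicle is not given in the sources used here. The 6 pools lay on 3 slides: 5 and 10 min on slide 1, 15 and 30 min on slide 2, 60 and 120 min on slide 3. Differences between slides and between early, middle and late labelled times therefore cannot be told apart, and labelled times can be compared apart from the slide only for the pair of pools on each slide.

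Chromaffin cells make dopamine and noradrenaline from tyrosine, load them into dense core granules together with acidic proteins called granins, and release them when acetylcholine opens nicotinic receptors. PC12 cells keep this machinery while they divide, and after nerve growth factor or PACAP they stop dividing and extend neurites. Their resting program is the baseline from which such responses are counted.

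A signal here is the log2 of the processed intensity of the control dye. Each channel was shifted so that its 75th percentile over the probes detected everywhere is the same, and both arrays of a pool were averaged. A probe was counted as detected on a channel where the scanner software flagged its spots as well above background. Brightness differs between probes also at the same RNA level, so signals describe a probe, and an order of genes by signal is an order of their probes and not of RNA levels.

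The cell identity was read with 5 probes for the 4 chromaffin markers, shown here because the check of the cells rests on them. They are the leading 30 of the 60 bases of each probe, 5′ to 3′, as the array files give them.
Th, chromosome 1, 203165487 to 203165546 on the minus strand of rn4: ccctaccaagatcaaacctaccagcctgtg
Dbh, chromosome 3, 6068194 to 6068253 on the plus strand: gctcaaggctttgtataactatgcccctat
Chga, brighter probe, chromosome 6, 126829580 to 126829639 on the plus strand: cacggcagcatccagttctcacttctattc
Chga, dimmer probe, chromosome 6, 126832496 to 126832555 on the plus strand: aactcctgactattaagatattccagataa
Chgb, chromosome 3, 120584804 to 120584863 on the plus strand: gttccacatgtctgtgacaatgaccgtgtt
The coordinates are those of the whole probes; whether each lies in coding sequence or in a UTR was not determined, since no rn4 annotation was used here.

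All 4 markers were detected on all 12 control channels. Th, tyrosine hydroxylase, the rate-limiting enzyme of catecholamine synthesis, had log2 signals of 15.78, 16.19, 16.02, 16.07, 15.79 and 15.78 in the pools from 5 to 120 min (SD 0.18, n = 6 pools). Over the Cy5 channels alone the SD of Th was 0.296. Dbh, which turns dopamine into noradrenaline, gave 8.46, 8.44, 8.51, 8.76, 8.54 and 8.57 (SD 0.12). The SD of Dbh was 0.0537 without the 30 min pool, 0.0601 with normexp, loess and Aquantile, 0.181 over the Cy5 channels alone and 0.309 with no scaling between arrays. As scaled here, both probes stayed within a fraction of 1 log2 unit over all 6 pools.

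The granins differed in how well their probes repeated. The brighter Chga probe, for chromogranin A, ranged from 12.72 to 12.99 over the pools with a median of 12.90 (SD 0.12, and 0.229 with no scaling between arrays). Its dimmer probe, which has the lower GC content of the pair (28.3% against 45%), ranged from 7.95 to 10.16. Chgb, chromogranin B, gave 12.64, 12.71, 13.40, 13.41, 13.33 and 14.29 (SD 0.59). The 2 arrays of the same Chgb pool stood as far apart as 11.18 and 14.11 at 5 min and 12.83 and 15.75 at 120 min, which is wider than the whole range between pool means. The pool F test of limma gave Chgb an adjusted p of 0.772, so the pools did not differ beyond the spread between their own arrays. The SD of Chgb between pools was 0.386 without the 120 min pool, 1.05 without the 5 min array with the control in Cy3 and 1.47 over the Cy5 channels alone.

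**Figure D1:**
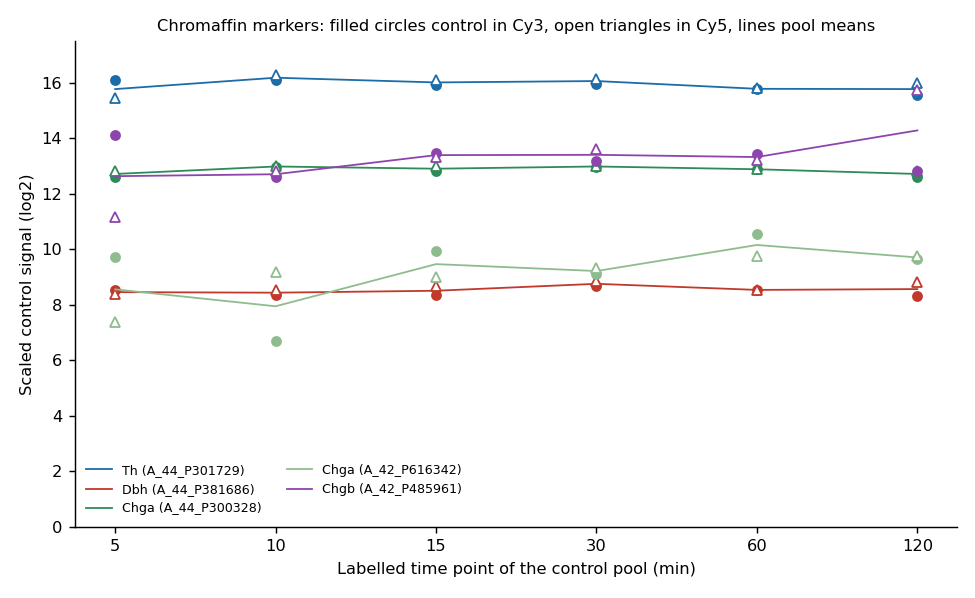
Scaled log2 control signal (y axis) of the 5 chromaffin marker probes at the 6 labelled time points in min (x axis); filled circles are arrays with the control in Cy3, open triangles arrays with the control in Cy5, and lines join the pool means. Th, Dbh and the brighter Chga probe run flat, while the arrays of a pool separate for Chgb at 5 and 120 min and for the dimmer Chga probe at 5 and 10 min.

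Of 41012 probes, 14504 (35.4%) were detected on all 12 control channels, 18822 (45.9%) on none, and 7686 (18.7%) on 1 to 11. Counted as genes with a RefSeq symbol, 6999 of 14710 (47.6%) had a probe detected on all 12 channels and 5668 (38.5%) had no detected probe. Among 3545 genes with several probes, 399 (11.3%) had 1 probe detected on all channels and another on none, so a single dim probe does not show that a gene is silent. The share detected was 37.8 to 44.2% over the 6 Cy3 channels (mean 41.71%, SD 2.32) and 41.2 to 49.2% over the 6 Cy5 channels (mean 44.36%, SD 3.39). Cy5 was higher in 4 of 6 pools, by 2.65 percentage points on average, and an exact two-sided permutation test by sign changes of the pairs gave p = 0.188, where 0.0312 is the smallest it can give. By pool the shares were 41.2, 41.22, 41.29, 42.85, 46.73 and 44.9%, with the pools of slide 3 highest.

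**Figure D2:**
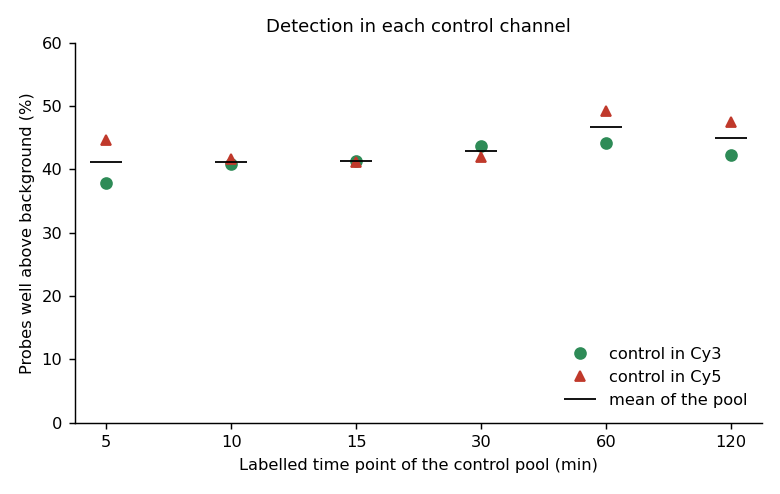
Percent of 41012 probes well above background (y axis) in each control channel at the 6 labelled time points in min (x axis); circles are Cy3, triangles Cy5 and dashes the mean of a pool. The means lie between 41.2 and 46.73%, with the 60 min pool highest.

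Among the 14504 probes detected everywhere, the median log2 signal was 9.11. Of these, 624 (4.3%) had a mean signal over 16384 intensity units, 1743 (12%) between 4096 and 16384, 3075 (21.2%) between 1024 and 4096, 4121 (28.4%) between 256 and 1024, 4247 (29.3%) between 64 and 256, and 694 (4.78%) under 64.

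The 10 named genes with the brightest probes were Rps3a, Atp5me, Rps23, Nnat, Rplp1, Mif, Pgam1, Hsp90aa1, Rpl7a and Atp5pb. Rps3a, a ribosomal protein, ranged from 16.96 to 17.48 with a median of 17.24. Rps23 and Rpl7a, also ribosomal, and Rplp1, of the ribosomal stalk, had medians of 16.83, 16.53 and 16.66. Atp5me and Atp5pb, subunits of the mitochondrial ATP synthase, had medians of 16.85 and 16.49. Pgam1, a glycolytic enzyme, and Hsp90aa1, a heat shock chaperone, had medians of 16.57 and 16.54. Mif, a cytokine, had a median of 16.65, and Nnat, neuronatin, a small membrane protein of developing neurons and endocrine cells, 16.83. The SD between pools was 0.09 to 0.20 for these 10 genes. Of the 100 named genes with the highest signal, 30 carried symbols that begin with Rpl or Rps, a grouping made after the signals were seen. The same 100 included Th and Ddc of catecholamine synthesis, Resp18 of the secretory granule, Krt18 and Epas1.

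**Figure D3:**
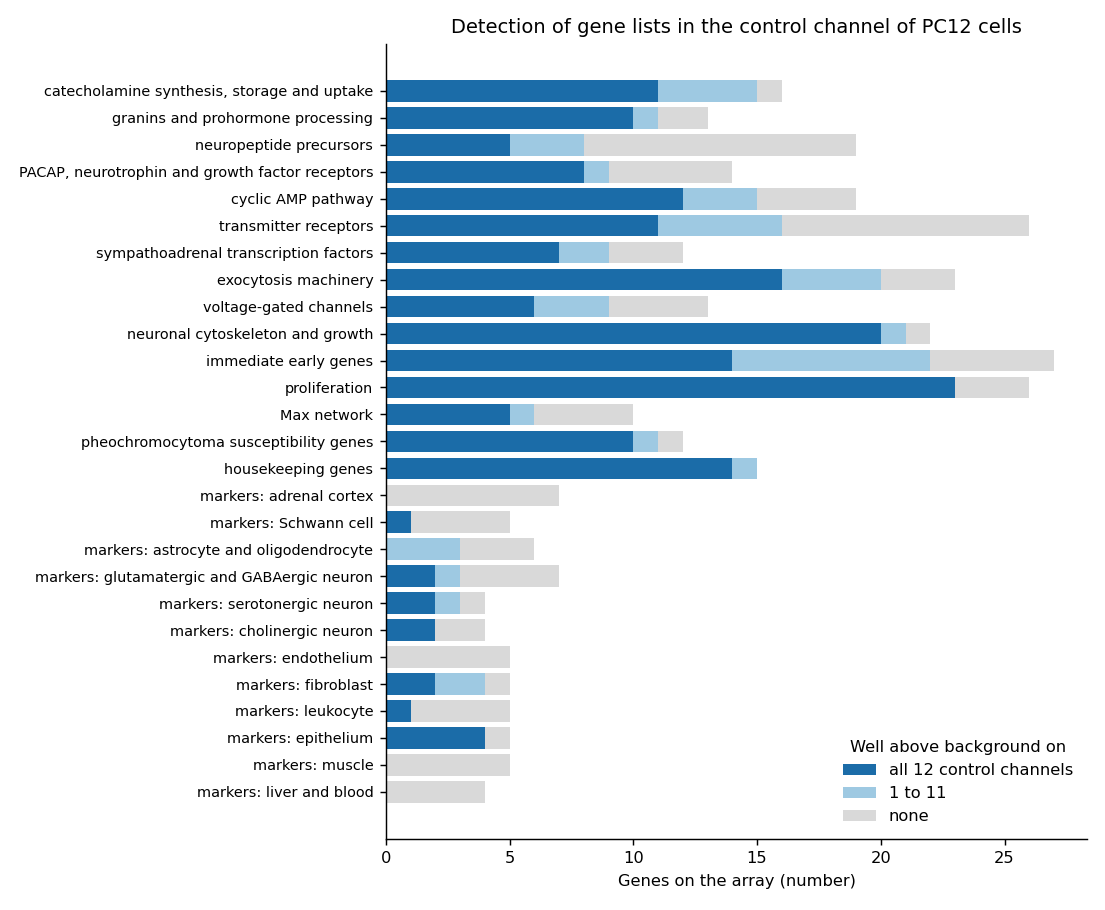
Number of genes on the array (x axis) of each gene list or marker list (y axis) with a probe well above background on all 12 control channels, on 1 to 11, or on none. Catecholamine, granin, cytoskeleton, proliferation and housekeeping lists are detected for the most part, and the lists for adrenal cortex, endothelium, muscle, and liver and blood are at none.

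Of 16 catecholamine genes on the array, 11 (68.8%, beside 47.6% of all genes) were detected on all 12 channels, 4 on some and 1 on none. The share of 47.6% is the background for the share detected in each list that follows, and no list was tested against it. Here and in these lists, the member with the largest SD is taken from those whose brightest probe was detected on all 12 channels. Ddc, which makes dopamine from L-DOPA, ranged from 16.08 to 16.28 with a median of 16.20 (SD 0.08). Slc18a1, the vesicular monoamine transporter of endocrine cells, ranged from 15.19 to 15.37 with a median of 15.27, and Slc18a2, its neuronal counterpart, from 8.63 to 8.93. Gch1, which starts the synthesis of the cofactor of Th, ranged from 10.79 to 11.35. Maoa, which degrades monoamines, varied most of the members detected everywhere, from 7.81 to 9.01 (SD 0.51). Slc6a2, the noradrenaline transporter, was detected on 11 channels, from 5.18 to 5.50, whereas Slc6a3, the dopamine transporter, was detected on none.

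Of 13 granin and prohormone genes, 10 (76.9%) were detected on all channels. Resp18 ranged from 15.39 to 15.65 and Scg3, secretogranin III, from 14.82 to 15.09, with SDs of 0.09 and 0.10. Both classical prohormone convertases, Pcsk1 and Pcsk2, were detected on none of the 12 channels, while Pcsk1n, an inhibitor of the former, ranged from 12.57 to 12.84. Cpe and Pam, which trim and amidate peptides, were detected everywhere, at medians of 11.15 and 12.65.

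Of 19 neuropeptide precursors 5 (26.3%) were found on all channels and 11 on none. Adm, adrenomedullin, a vasodilator peptide, ranged from 15.21 to 15.45 with a median of 15.32. Pomc had a median of 8.96 and Calca, which encodes calcitonin and its gene-related peptide, 7.95, and Cck had the largest SD of the detected members, 0.24, with a range of 7.09 to 7.65. The precursors at none were Penk, Pdyn, Tac1, Adcyap1, Nts, Sst, Nmu, Nppa, Nppb, Grp and Crh. Adcyap1 encodes PACAP itself and has 4 probes on the array. Npy was detected on 1 channel, with a median of 2.99.

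Of the receptors for PACAP, neurotrophins and growth factors, those of PACAP and the neurotrophins included bright members. Adcyap1r1, which encodes the PACAP receptor PAC1, ranged from 13.00 to 13.38 with a median of 13.19 (SD 0.13). Vipr1 and Vipr2, the receptors that PACAP shares with VIP, were detected on none. Ngfr, the low-affinity neurotrophin receptor, ranged from 13.62 to 14.08. Egfr and Ret had medians of 10.34 and 11.78, and Fgfr1 had the largest SD of the detected members, 0.20, with a range of 6.45 to 7.00. Ntrk3, Gfra1 and Insr were detected on none, and Ntrk2 on 1 channel by 1 of its 5 probes. In all, 8 of 14 receptors (57.1%) were detected on all channels. The pool test of limma called none of the 8, beside 0.262% of all probes tested. At so low a share, no call among 8 genes is not a result about the receptors.

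Of the cyclic AMP pathway, into which PAC1 feeds, 12 of 19 genes (63.2%) were detected on all channels. Adcy6, an adenylyl cyclase, ranged from 11.86 to 12.37 and Adcy9 from 10.96 to 11.77, the latter with the largest SD (0.31) of the members detected everywhere. Adcy1 and Adcy2, neuronal cyclases, were detected on none. The regulatory subunits of protein kinase A, Prkar2a and Prkar1a, had medians of 14.04 and 13.77, and Creb1 had 10.43. Of the cyclic AMP sensors outside protein kinase A, Rapgef3 and Rapgef4 were detected on none and Rapgef2 on 2 channels, at a median of 4.0.

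Of 26 receptors of transmitters, 11 (42.3%, beside 47.6% of all genes) were detected on all channels and 10 on none. Chrna7 ranged from 13.14 to 13.78 with a median of 13.43; Chrna3, Chrna5 and Chrnb4, subunits of the ganglionic nicotinic receptor, had medians of 10.22, 9.30 and 6.25. P2rx2, an ATP-gated channel, had a median of 13.09, Grin1, the obligate NMDA receptor subunit, 12.86, and Adora2a, an adenosine receptor, 10.42. The receptors at none were Chrm1, Chrm2, Chrm3, Chrm5, Adora2b, Adra2a, Adra2c, Drd2, Htr1a and Htr2a, while Chrm4, of the same muscarinic family, had a median of 9.47.

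Of 13 voltage-gated channels, 6 (46.2%) were detected on all channels. Kcnma1, a potassium channel, had a median of 9.57 and the largest SD, 0.40. Scn9a, Cacna1d, Kcna2 and Kcnn2 were at none.

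Exocytosis genes were detected on all channels for 16 of 23 (69.6%). Snap25 ranged from 13.81 to 14.11 and Syp, synaptophysin, from 13.74 to 14.08, and Vamp3 had a median of 13.47. Cplx1, Sv2b and Syn1 were detected on none. Syt4, a synaptotagmin of dense core granules, varied most and is described with the genes that differ between pools.

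The cells expressed neuronal cytoskeleton genes at rest. Of 22 such genes 20 (90.9%) were detected on all channels. Prph, peripherin, an intermediate filament of peripheral neurons, ranged from 14.86 to 15.38 with a median of 15.00. Gap43, a growth cone protein, had a median of 13.94 and Uchl1 13.78. Map1b had the largest SD, 0.33. Dcx, doublecortin, was detected on none, and Map2, the dendritic microtubule protein, on 1 channel by its brightest probe.

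Of the transcription factors of the sympathoadrenal lineage, 7 of 12 (58.3%) were detected on all channels. Phox2a ranged from 14.79 to 15.01 (SD 0.10) and Gata2 had a median of 10.73. Hand1, Isl1 and Hand2 had medians of 8.53, 8.62 and 8.81, with the largest SD of the members detected everywhere for Hand2, 0.49. Epas1, the hypoxia-inducible factor 2 alpha of chromaffin cells, ranged from 15.89 to 16.22 with a median of 16.00. Insm1, Sox11 and Eya1 were detected on none.

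Of the cell cycle genes, 23 of 26 proliferation genes (88.5%) were found on all channels. Cdk1, the mitotic kinase, ranged from 14.59 to 15.32, Birc5 from 12.21 to 13.24 and Mki67 from 9.77 to 10.45. Ccnd3 had the largest SD, 0.52. The genes at none were Ccnd2, Cdkn2a and Cdkn2b, of which the Cdkn2 pair inhibits the cyclin D kinases, while the inhibitor Cdkn1a had a median of 13.74.

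PC12 cells are known to lack functional Max, the partner through which Myc binds DNA. The only Max probe was detected on none of the 12 control channels and ranged from 1.97 to 2.75 with a median of 2.58. Myc, Mycl and Mxd1 were also at none, while Mycn, with 1 of 2 probes detected everywhere, ranged from 5.14 to 5.70 and had the largest SD, 0.20, of the members detected everywhere. Mxd4, Mlx and Mxd3 had medians of 12.55, 9.98 and 9.85. Of 12 genes mutated in human pheochromocytoma, a list that also holds Max, Epas1 and Ret, 10 (83.3%) were detected on all channels and Nf1 on 1. Sdhd and Sdha, subunits of succinate dehydrogenase, had medians of 15.02 and 14.44, with an SD of 0.04 for Sdha. Sdhc had the largest SD, 1.21, and is described with the array-dependent probes.

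Housekeeping genes gave the measure of how steady a bright probe can be. Of 15, 14 were detected on all channels and Gusb on 10. Actb ranged from 16.08 to 16.30 and Gapdh from 15.17 to 15.48, with SDs of 0.09 and 0.12. Rplp0 had the largest SD, 0.34. The median SD over the 14 genes was 0.113, beside 0.140 over all probes tested.

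Markers of other cells were mostly absent from the detected set. None of the 7 adrenal cortex genes, 5 endothelial, 5 muscle, or 4 liver and blood genes on the array was detected on any channel, and the brightest probes of these 21 genes had medians from 2.33 to 4.01. Of the 5 Schwann cell markers 1 was detected on all 12 channels, while Sox10, S100b and Foxd3 were at none. Ptprc, the common leukocyte antigen, Cd74, Aif1 and Cd3e were at none, while Cd68 had a median of 6.91. Col1a1 and Pdgfra of the fibroblast list were detected everywhere, at medians of 6.09 and 6.60. Neuronal lists were split: Slc18a3, the vesicular acetylcholine transporter, had a median of 11.66 and Ache 7.13, but Chat and Slc5a7 were at none. Tph1 and Fev of the serotonergic list had medians of 8.26 and 7.93 and Slc6a4 was at none; Slc17a7 and Slc32a1 had 8.24 and 7.32 beside Gad1, Gad2, Camk2a and Slc17a6 at none. Of the astrocyte and oligodendrocyte list none of 6 was detected on all channels, and Aqp4, Mog and Mbp on 10, 6 and 3. Against these lists stands the epithelial one, with 4 of 5 genes detected everywhere: Krt18 ranged from 15.96 to 16.23, Krt8 from 12.82 to 13.36, Epcam from 12.09 to 12.46 and Cdh1 from 6.67 to 6.92. Krt5, of stratified epithelia, was at none. In RNA from whole cultures, few cells with much of a transcript and many cells with little cannot be told apart.

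Over the 14504 probes detected everywhere, the SD between the 6 pools had a median of 0.140 log2 units, which is a factor of 1.1, and quartiles of 0.0996 and 0.201. The median was 0.260 with no filter on dim probes and 0.301 with no scaling between arrays. For 90.0% of the probes it was under 0.3, and 371 (2.56%) were above 0.5 and 26 above 1. The residual SD of single arrays within a pool, after the dye, had a median of 0.143. It cannot be set directly against the SD between pool means, since each mean averages 2 arrays and so carries less of this spread. Correlations between control channels across these probes ran from 0.976 to 0.994, with a median of 0.992 for the 2 channels of a pool and 0.988 for channels of different pools; probes are not independent replicates. Dim probes varied more: the median SD was 0.164 for probes with signals under 64 units and 0.114 for those over 16384.

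**Figure D4:**
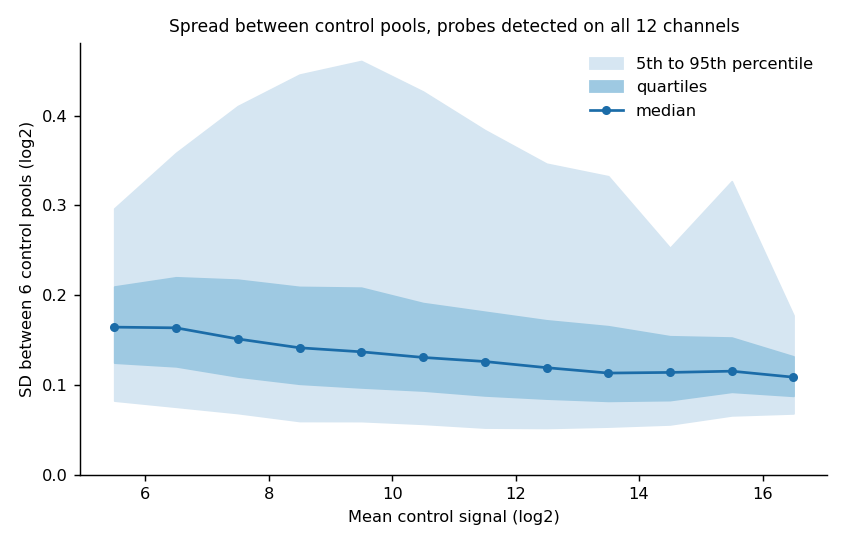
SD of the log2 control signal between the 6 pools (y axis) against the mean log2 signal (x axis, bins of 1 log2 unit) for the 14504 probes detected on all 12 channels; the line is the median, the dark band the quartiles and the pale band the 5th to 95th percentile. The median falls from the dim to the bright end.

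Probe makeup and place on the array moved with the spread. From the least to the most variable of 10 equal groups of probes, the median row on the array went from 225 to 334 and the median GC content from 45 to 40%. Detection moved with GC content too: 19.0% of probes with up to 30% GC were detected on all channels, 40% of those with 50 to 55%, and 34.0% of those above 60%. Their part in the gene results was not tested.

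Some of the most variable probes were set by single arrays. Asphd1, a membrane protein gene, had 14.39, 14.24, 14.28, 14.37, 10.73 and 14.29 in the pools, and the low value came from the 60 min array with the control in Cy5 (7.21 beside 14.26 on the other array). RT1-CE2, a class I histocompatibility gene with close relatives, had 9.96 at 5 min and 13.15 to 13.38 elsewhere, through 6.68 on the 5 min array with the control in Cy3. Sdf4, Gins4, Uba2, Cct5 and Sdhc ranged over more than 3 log2 units between channels, and the arrays of the same pool disagreed. For Sdhc, the 5 min pool gave 13.50 in Cy3 and 7.89 in Cy5 and the 10 min pool 6.84 and 9.81. All 7 probes carried no outlier flag that removed them and passed the detection filter on all 12 channels.

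Whether the control pools differed from each other was tested with limma's moderated F test over pools, with the dye in the model. At an adjusted p below 0.05 it called 38 of 14504 probes (0.262%), and 2787 had an unadjusted p below 0.05. The residual here is the spread between the 2 arrays of a pool, which is technical. Of the 38, 32 were highest in the 60 or the 120 min pool and 5 lowest in one of them. The same shares over all 14504 probes were not counted, so 32 of 38 cannot be called particular to the called probes. The count of called probes was 0 without the 15 or the 60 min pool, 2 without the 120 min pool, 3 without the 10 min pool, and 0 when only the differences within slides were tested.

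The largest positive slopes among the 38 belonged to Nr4a2 and Fosl1, known early responders to cyclic AMP and growth factors. Nr4a2, an orphan nuclear receptor, had control signals of 5.55, 5.50, 6.11, 8.34, 9.36 and 8.57 from 5 to 120 min, a span of 14.5-fold (limma, adjusted p = 0.0144). The arrays of a pool stood at 7.98 in Cy3 and 8.69 in Cy5 at 30 min, at 8.97 and 9.75 at 60 min and at 8.20 and 8.94 at 120 min, all above the 6 arrays of the earlier pools, which ranged from 5.41 to 6.20. The call was lost with normexp, loess and Aquantile (adjusted p = 0.0556, with the slope on log2 minutes at 0.33 in place of 0.90), with no filter on dim probes (0.101), without the 15 or the 60 min pool (0.0545 and 0.0924) and without the 60 min array with the control in Cy5 (0.0836). It had the largest SD between pools of all 14504 probes, 1.71, and was detected on all 12 channels.

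Fosl1, a partner of Jun in the AP-1 factor, had 7.37, 7.15, 7.40, 8.31, 10.10 and 10.23, a span of 8.42-fold (adjusted p = 0.0217). Its call was lost with normexp (adjusted p = 0.0502, with a slope of 0.46 in place of 0.77), with no filter (0.165), without the 10, 15 or 60 min pool (0.0545, 0.0551 and 0.154) and without the same 60 min array (0.0949). Nr4a1, a relative of Nr4a2, had 8.49, 8.86, 9.77, 11.64, 12.06 and 10.91, a span of 11.9-fold. The pool test did not call Nr4a1 (adjusted p = 0.101), whose 5 min arrays stood at 9.56 and 7.43. It was called without the 5 min pool (adjusted p = 0.0167), without the 5 min array with the control in Cy3 (0.0102), with normexp (0.0273) and with no scaling between arrays (0.00418). Dusp1, a phosphatase that turns off MAP kinases, had 5.84, 6.20, 5.95, 6.62, 7.21 and 7.19 and an adjusted p of 0.0549. Its slope on log2 minutes was 0.34, and 0.06 with normexp. In all these genes the pools from 30 to 120 min were above those from 5 to 15 min. The share of all probes that separate in this way was not counted. Within a slide, the later pool stood above the earlier one for Nr4a2 on slide 2 (6.11 and 8.34) and below it on slide 1 (5.55 and 5.50) and slide 3 (9.36 and 8.57). For Nr4a1 it stood above on slides 1 and 2 (8.49 and 8.86, 9.77 and 11.64) and below on slide 3 (12.06 and 10.91).

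Fos, which was detected on 10 of 12 channels and so was not tested, had 3.78 at 5 min, where it was not well above background, and then 6.02, 7.34, 7.93, 8.09 and 6.27. Atf3, detected on 9 channels, had 4.32, 4.97, 5.20, 6.34, 7.89 and 6.53. Nr4a3, detected on 3 channels, went from 2.81 at 5 min to 5.42 at 60 and 6.08 at 120 min.

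Of the 27 genes of the immediate early list 14 (51.9%) were detected on all channels, 8 on some, and Egr3, Npas4, Klf2, Myc and Ccn1 on none. Of the 14 tested, the pool test called 2, Fosl1 and Nr4a2, beside 0.262% of all probes, and the median SD of the 14 was 0.221, beside 0.140 over all probes. The members differed in their spread. Fosl2, Dusp6 and Egr4, detected on 6, 8 and 11 channels and so not tested, ranged from 3.76 to 5.59, from 4.24 to 6.02 and from 5.78 to 7.68. Jund, Arc and Ier2 had the brightest probes of the list, with medians of 14.31, 12.70 and 11.95 and SDs of 0.19, 0.14 and 0.13. Klf4 ranged from 7.44 to 7.67, Junb from 9.10 to 9.47 and Egr1 from 7.82 to 8.64.

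Other called probes included those of Syt4, Crem, Nmt2, Maged1, Itpkc, Bag3, Chac1, Depp1, Rhox9 and Chrna3. The brightest Syt4 probe fell from 11.84 at 5 min to 10.97 at 60 and 10.33 at 120 min (adjusted p = 0.0217). This call was lost with no filter on dim probes (0.165), without the 10, 15, 60 or 120 min pool (0.0545, 0.0545, 0.0924 and 0.134) and without the 60 min array with the control in Cy5 (0.0836). Another Syt4 probe rose from 6.86 to 8.90 (adjusted p = 0.0144), and the third ran with an SD of 0.134, so the 3 probes of this gene disagree. A Crem probe, for a repressor of cyclic AMP-driven transcription, rose from 7.52 to 8.86 (adjusted p = 0.0436), while the brighter Crem probe, with 8.36 at 5 min and 10.37 at 120 min, was not called (adjusted p = 0.0581). Bag3, a co-chaperone, had 13.60, 13.67, 13.60, 13.54, 13.00 and 12.99. Chac1, which degrades glutathione, had 10.87, 10.86, 11.01, 11.40, 11.64 and 10.30. Chrna3 had 9.72, 10.11, 10.24, 10.21, 10.95 and 10.53. Nmt2, an enzyme that attaches myristate to proteins, went from 8.44 to 9.78. Maged1 had 8.68, 10.06, 10.03, 10.06, 10.63 and 10.12, and Itpkc, an inositol trisphosphate kinase, went from 6.04 to 7.24. Depp1 and Rhox9 fell from 9.30 to 8.49 and from 7.37 to 6.99, the latter with its highest value, 8.23, at 10 min and its lowest, 5.87, at 60 min.

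The PACAP38 channel of the same arrays, put on the same scale, is given beside the control for some of these genes. For Nr4a2 it was 5.71, 7.84, 9.74, 13.06, 14.29 and 13.65, and for Fosl1 7.32, 7.38, 7.87, 10.71, 13.27 and 13.72. At 5 min the PACAP38 channel was the higher for Nr4a2 and the control for Fosl1, and from 10 min on the PACAP38 channel was above the control for both genes. It was not above the control at each time for all called probes: Nmt2 had 9.53 in the control and 9.32 in the PACAP38 channel at 60 min and 9.78 and 9.17 at 120 min. Btg2, which limits proliferation, reached 15.10 in the PACAP38 channel at 60 min and ranged from 8.28 to 9.23 in the control, and a called probe without a gene symbol reached 14.44 there at 60 min and went from 7.26 at 10 min to 9.11 at 120 min in the control. Klf4 reached 14.29 in the PACAP38 channel at 60 min with 7.58 in the control, and an Inhba probe, for an activin subunit, reached 13.93 at 120 min with 3.21 in the control, not well above background on any of the 12 channels. Rgs2, a regulator of G protein signalling, reached 12.41 at 120 min with 4.34 in the control, where the earlier pools had 3.07 to 3.43. Its control signal was well above background on 1 of the 12 channels, at 120 min in Cy5. These probes were picked after their values were seen. A different Inhba probe, well above background on 5 of the 12 control channels, was at 2.55, 2.45 and 2.52 in the control up to 15 min, where it was not well above background. At 30 min its arrays disagreed, at 6.01 in Cy3 and 2.91 in Cy5. The control was at 5.32 at 60 min and at 8.61 at 120 min, beside 11.99 in the PACAP38 channel at 120 min. The cause of the control differences was not tested.

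**Figure D5:**
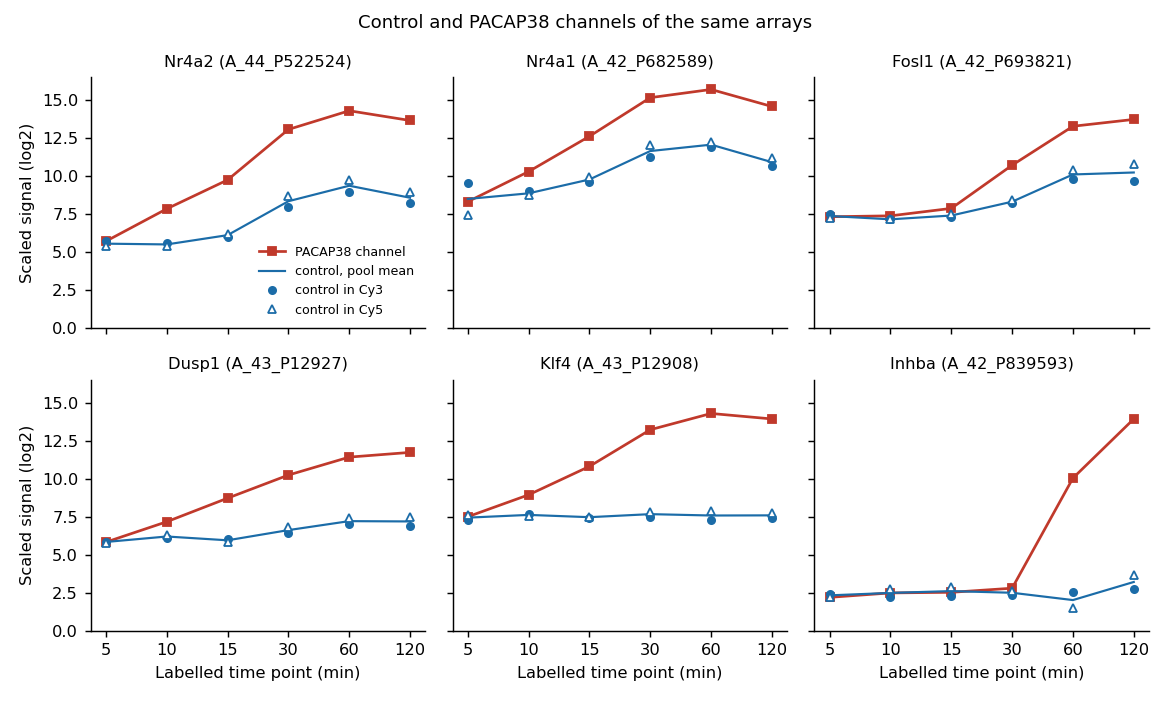
Scaled log2 signal (y axis) of 6 probes in the control channel (blue line, pool mean; circles, control in Cy3; triangles, control in Cy5) and in the PACAP38 channel of the same arrays (red squares, pool mean) at the labelled time points in min (x axis). Nr4a2, Nr4a1, Fosl1 and Dusp1 are higher in the pools from 30 to 120 min than in those from 5 to 15 min in both channels, while the control stays at 7.44 to 7.67 for Klf4 and at 3.21 or less for this Inhba probe.

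Promoters are shown for the 4 immediate early genes tested whose control pools from 30 min on all stood above the earlier ones, and for Th, since the cyclic AMP response element binds CREB and begins with the letters TGACG. The cut at 30 min follows these same values. How many of all probes separate at it was not counted, so the separation cannot be called particular to these genes. The sequences are the 250 bases before the gene's start in RefSeq on GRCr8, 5′ to 3′ in the sense of the gene; capitals mark TGACG on either strand, and overlapping matches run together.
Nr4a1, chromosome 7, 134259888 to 134260137: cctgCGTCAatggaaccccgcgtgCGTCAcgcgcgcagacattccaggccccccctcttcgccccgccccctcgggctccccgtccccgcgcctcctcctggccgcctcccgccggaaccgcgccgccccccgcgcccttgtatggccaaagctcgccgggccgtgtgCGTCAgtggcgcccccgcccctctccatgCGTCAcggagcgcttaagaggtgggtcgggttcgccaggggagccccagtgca
Nr4a2, chromosome 3, 62104888 to 62105137, minus strand: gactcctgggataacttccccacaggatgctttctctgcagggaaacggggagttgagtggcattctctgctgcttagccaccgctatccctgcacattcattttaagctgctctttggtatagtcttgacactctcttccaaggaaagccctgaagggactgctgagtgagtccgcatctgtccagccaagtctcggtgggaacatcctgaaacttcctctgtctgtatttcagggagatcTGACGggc
Fosl1, chromosome 1, 212183635 to 212183884: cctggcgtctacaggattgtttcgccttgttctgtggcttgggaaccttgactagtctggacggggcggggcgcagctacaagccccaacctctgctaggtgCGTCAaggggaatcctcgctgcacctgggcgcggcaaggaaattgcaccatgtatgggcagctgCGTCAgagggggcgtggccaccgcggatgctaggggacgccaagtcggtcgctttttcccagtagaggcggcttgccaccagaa
Dusp1, chromosome 10, 17184603 to 17184852: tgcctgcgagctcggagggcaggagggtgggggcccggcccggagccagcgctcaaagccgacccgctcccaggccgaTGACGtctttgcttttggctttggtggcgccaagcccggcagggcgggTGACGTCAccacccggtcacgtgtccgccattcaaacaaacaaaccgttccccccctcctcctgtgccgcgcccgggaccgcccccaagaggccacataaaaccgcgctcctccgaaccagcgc
Th, chromosome 1, 207508219 to 207508468, minus strand: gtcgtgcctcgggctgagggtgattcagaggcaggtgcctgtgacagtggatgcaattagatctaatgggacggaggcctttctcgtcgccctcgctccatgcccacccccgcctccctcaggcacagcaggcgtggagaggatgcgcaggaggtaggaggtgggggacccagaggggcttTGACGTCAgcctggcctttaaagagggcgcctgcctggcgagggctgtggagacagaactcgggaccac
Matches were counted on each strand, so that 1 stretch of TGACGTCA, as before Th, counts 2 times. The letters were found 4 times before Nr4a1, 1 time before Nr4a2, 2 times before Fosl1, 3 times before Dusp1 and 2 times before Th, and 0 times before Fosl2 and Dusp6, which also stood higher from 30 min on. List members whose control pools did not separate in this way held the letters too, 3 times before Jund and 2 times each before Egr1, Egr4, Ier2 and Btg2, and 0 times before Klf4. They stood in 13 of 19 immediate early promoters in the table, and in 5162 of 27457 (18.8%) of all promoter windows of this length. A match is a description of the sequence and not a binding site. Whether each gene's start in RefSeq is where its transcription starts was not checked, so a count, also one of 0, describes the window only.

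A trend over the labelled time was tested as a slope on log2 minutes over the 6 pool means. limma called 0 of 14504 probes (0.0%) at an adjusted p below 0.05, while at an unadjusted p below 0.05 a positive slope was found for 1469 (10.1%) and a negative one for 1238 (8.54%). Nr4a2 had a slope of 0.90 ± 0.16 (SE) log2 units for each doubling of the time, Fosl1 0.77 and Nr4a1 0.73, none of which passed the adjustment. Of the 14 immediate early genes tested, 5 had a positive slope and 0 a negative one at that unadjusted level: Fosl1, Nr4a1, Nr4a2, Btg2 and Dusp1. The median slope of all 14 was 0.05, beside -0.006 over all probes tested. With slide as a block the slope of Nr4a2 was 0.46 ± 0.52, that of Fosl1 0.27 ± 0.21 and that of Nr4a1 0.36 ± 0.50, so within slides none was distinguishable from 0. Without the 120 min pool the slope of Nr4a1 was 1.13. In minutes in place of log2 minutes, limma called 3 probes, the called pair of Syt4 probes and another Crem probe.

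Between slides, limma's F test on the 6 pool means called 0 of 14504 probes (0.0%), with 2336 at an unadjusted p below 0.05. Without the 5 or the 10 min pool the count was 360 or 379, with slide 1 then held by a single pool that is assumed to vary like the others. The first principal component of the pool means held 47.4% of the variance, and placed the pools at -14.6 and -21.4 (slide 1), 2.5 and -5.9 (slide 2) and 23.6 and 15.8 (slide 3).

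Between dyes, the same pools read in Cy5 and in Cy3 differed for 117 of 14504 probes (0.807%; limma, pool as a block), 67 higher in Cy5 and 50 higher in Cy3. The difference in log2 signal, Cy5 minus Cy3, was -1.17 for Ifnar1, with Rtn4rl1 at -0.92, Aldh3b1 at -0.84, Rai2 at -0.83 and Srrm3 at -0.78. Lrg1 was higher in Cy5 by 0.83, Tead3 by 0.78, a Cplx2 probe by 0.76, Vopp1 by 0.72 and Marchf6 by 0.68. None of the brightest probes of the genes on the lists was among the 117. The smallest adjusted p was 0.0254. The count was 0 without any 1 of the 6 pools, where 2334 to 3036 probes had an unadjusted p below 0.05, beside 3033 with all 6. Each such fit has fewer arrays.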

How the data were processed

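Control RNA was read in 1 channel of each of 12 Agilent arrays with 2 colours. The authors scanned the arrays with Feature Extraction (version 12.0.3.1 per the file headers, 11.0.1.1 per the submitters' processing notes, and yet another version in the study's methods), and in the deposited processed intensity the software had removed the background and spatial trends, balanced both dyes by LOWESS, and put a substitute value on spots too dim to measure. Per the file headers, a spot was flagged as well above background when it exceeded a set multiple of the background's error. The deposited table of ratios was not used, and no spot was saturated in the control channel.

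From these, 1639 of 45018 spots that are controls and 129 to 187 outlier-flagged spots in a channel were left out, log2 intensity was averaged over the spots of a probe, and channels were shifted to a common 75th percentile over the 14504 probes detected on all 12 channels. A probe was detected on a channel where most of its spots were flagged. Control pools (n = 6) were the means of 2 arrays. The labels do not say that pools came from separate cultures, so p-values measure only the spread between these samples, which may be technical. limma 3.58.1 in R 4.3.3 was used with Benjamini-Hochberg adjustment over all probes tested, and the fits were tested on simulated data with 200 changed probes. The small number of arrays limits the precision. Of 41012 probes, 19277 were matched by accession to a RefSeq symbol; Pnmt, Kcnq3, Mga and Hba1 were among the list members not matched to a probe.

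Named genes are the 4 markers; in each list the 3 members with the highest signal, the one with the largest SD and those at none; the 10 brightest and the 10 most variable; and, in each test, the 5 largest changes each way that have a symbol. Some members that this rule names are not reported here, though counts over the lists include them. Other members and the called Crem probe are named for their roles, after their values were seen. The brightest probe stands for a gene. The members and lists were chosen with earlier results of these data known. Alternatives covered the detection flag, dye, scaling, normexp with offset 50 and loess, filters, slide and time terms, and each pool left out; leaving out 1 array was chosen after seeing the data.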

Additional observations from a re-analysis of the deposited data

Results flagged for a closer look

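In 36 values tested, 1 of them the share of probes detected, for a pool that stands apart from the other 5, 5 values were marked. Chance marks about 1 in 20 of values not chosen for their spread, but the 36 include the 10 probes picked for the largest SD between pools, and Asphd1, RT1-CE2 and Sdhc are 3 of these, so that rate cannot be set against the 5. Mif had 16.43 at 60 min and 16.63 to 16.71 in the other pools. Jun had 9.02 at 60 min and 9.41 to 9.61 in the others. Asphd1 had 10.73 at 60 min and 14.24 to 14.39 in the others. RT1-CE2 had 9.96 at 5 min and 13.15 to 13.38 in the others. Sdhc had 8.32 at 10 min and 10.70 to 11.82 in the others. For Asphd1 and RT1-CE2 the low value came from 1 of the 2 arrays of the pool, at 7.21 and 6.68.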

How the results depend on the processing

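The share of probes detected on all channels (35.4%) stayed within 1.5 times under every alternative run, and was 35.4 to 36.8% with each pool left out. It was 47.4% with the software's other flag, for a signal positive and significant against background, so the share depends on the flag. The median SD between pools (0.140) was 0.301 with no scaling between arrays and 0.260 with no filter on dim probes, and 0.130 to 0.143 with each pool left out.

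The counts of called probes were less stable, and the cause was not tested. For pools (38 called) they were 12219 with no scaling, 13 with the 75th percentile over all probes, 17 with quantile normalization, 22 with normexp, loess and Aquantile, 23 with the filter of both arrays of at least 1 pool, 1 with no filter, 0 for pools within slides only, and 0 to 20 with each pool left out. For dyes (117 called) they were 63 with no scaling, 0 with normexp, 724 with the filter of both arrays of at least 1 pool, 7073 with no filter, and 0 to 0 with each pool left out. For slides (0 called) they were 5809 with no scaling and 0 to 379 with each pool left out. For the trend over time (0 called) they were 3660 with no scaling, 3 with minutes in place of log2 minutes, and 0 to 0 with each pool left out. Leaving out 1 array was chosen after seeing the data: without the 60 min array with the control in Cy5 the counts were 0 for pools, 0 for dyes and 1 for the trend, and without the 5 min array with the control in Cy3 they were 76 for pools, 0 for dyes and 31 for slides.

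The adjusted p of Nr4a2 between pools (0.0144) was 0.0152 to 0.0924 with each pool left out, and that of Fosl1 (0.0217) 0.0167 to 0.154. The control is a single group, so no groups were paired by replicate number; the fits with pool or slide as a block are given in the report.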
